A study of Mus musculus with 6 samples.

Results

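Transcript levels were described for 10 genes that carry or limit signals from G protein coupled receptors: the alpha subunits Gnai1, Gnai2, Gnai3, Gnao1, Gnas and Gnaq, the regulators of G protein signalling Rgs2, Rgs3 and Rgs4, and the receptor kinase gene Grk5. They were chosen by name as genes acting downstream of alpha-2 adrenergic receptors, and all 10 were found among the 37620 genes of the deposited count table and passed the filter on low counts. The samples were 6 libraries of heart apex from wild-type C57/BL6J mice, taken after myocardial ischaemia of 30 min, an interruption of the blood supply, and reperfusion of 120 min. For the 3 dexmedetomidine libraries, mice were first infused with the carrier solution (vehicle) of the alpha-2 antagonist yohimbine, 30 min later with dexmedetomidine at 10 µg/kg, and were operated on after a further 20 min. Mice of the 3 vehicle libraries had received the vehicles of both drugs before surgery, with no times given, and all infusions went into the tail vein within 10 min. The comparison asks which of these transcripts differ in the reperfused apex when dexmedetomidine, an alpha-2 agonist used as a sedative, was given first. No group without ischaemia and reperfusion, and none that received yohimbine itself, was analysed here.

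A G protein alpha subunit binds GTP when a receptor is activated and signals until it hydrolyses that GTP. Subunits of the Gi/o class (Gnai1, Gnai2, Gnai3, Gnao1) couple to alpha-2, muscarinic and adenosine receptors and inhibit adenylyl cyclase, Gs (Gnas) couples to beta-adrenergic receptors and stimulates it, and Gq (Gnaq) couples to alpha-1 adrenergic, angiotensin and endothelin receptors and activates phospholipase C beta. RGS proteins speed up GTP hydrolysis and so end the signal, while receptor kinases such as Grk5 phosphorylate active receptors and prepare them for arrestin binding. In the heart, Gs raises rate and contractile force, Gi/o opposes it, and Gq signalling is known for its part in hypertrophic growth.

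Each library held 42691399 to 56615882 reads assigned to genes, and mitochondrially encoded genes took up 22.0% to 25.2% of them after vehicle and 27.1% to 38.2% after dexmedetomidine. The 13 cardiomyocyte markers, none at 0, summed to 69411 to 85305 counts per 1e6 (CPM, scaled with edgeR's TMM factors) after vehicle and to 61106 to 67158 CPM after dexmedetomidine. Of these, 7 were lower and 1 higher at an unadjusted edgeR p under 0.05, beside 9.03% and 12.5% of all tested genes. Corrected for GC and length, 2 were lower and 0 higher, beside 12.5% of all genes in either direction. Their corrected mean log2 CPM still did not overlap, at 11.86 to 12.15 after vehicle and 11.77 to 11.83 after dexmedetomidine. Mean log2 CPM of 9 fibroblast markers was 6.62 to 6.79 after vehicle and 6.86 to 6.93 after dexmedetomidine, and that of 10 endothelial markers was 6.56 to 6.70 and 6.44 to 6.56, each without overlap as counted and with overlap once corrected for GC and length. The endothelial gap was narrow, at 6.5564 against 6.5557. Summed CPM of both lists overlapped as counted, at 2617 to 2800 and 2626 to 2763 for fibroblast markers, and 1298 to 1406 and 1241 to 1303 for endothelial markers. At an unadjusted edgeR p under 0.05, 4 fibroblast markers were higher and 1 lower, and 0 endothelial markers passed, beside 12.5% and 9.03% of all tested genes. The part of these cell type markers in the results was not tested. Vehicle replicate 2 stood apart in 28 immediate early genes, a class induced rapidly by stress and growth stimuli, with a sum of 7262 CPM against 2002 to 3145 CPM in the other libraries. Of the 27 tested, 13 were lower and 0 higher at an unadjusted edgeR p under 0.05, beside 9.03% and 12.5% of all tested genes. Their median log2 fold change was -0.87. Corrected for GC and length, 6 were lower and 0 higher, beside 12.5% of all genes in either direction. Mean log2 CPM of the 28 overlapped as counted, at 5.26 to 6.90 after vehicle and 4.96 to 5.58 after dexmedetomidine. The part of this class in the results was not tested. Dexmedetomidine replicate 3 stood apart in some atrial genes, whose list of 9 summed to 127 CPM there and 63.0 to 89.8 CPM elsewhere, with Bmp10 at 0 throughout: Myl7, the atrial myosin light chain, was at 11.9 CPM there and at 0 to 0.0195 CPM in the other libraries, and Sln, which codes for atrial sarcolipin, was at 11.1 CPM and at 0 to 0.0173 CPM. Myl4 and Dkk3 were also highest there, while Nppa, Stard10, Tbx5 and Gja5 of the same list lay within the range of the other libraries. In bulk tissue, fewer cells of a type and less RNA per cell cannot be told apart. Fold changes also followed the GC content of genes across the whole table, with a median log2 fold change of 0.47 in the fifth of genes with the lowest GC content and of -0.30 in the fifth with the highest. The 10 genes spanned 41.7% (Gnai3) to 57.8% (Gnas) GC, so the fold change of each of them is also given with the GC and length trend of each library removed. Mean log2 CPM of 13 mitochondrially encoded protein genes was 9.82 to 10.1 after vehicle and 10.4 to 11.2 after dexmedetomidine as counted. With that trend removed the groups overlapped, at 10.1 to 10.6 and 10.0 to 10.8.

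Gnaq had higher transcript levels after dexmedetomidine, and Gnas and Rgs2 had lower levels, while the Gi/o subunits, Rgs3, Rgs4 and Grk5 gave overlapping values in the groups. None of the 10 passed an adjusted p of 0.05 in edgeR's quasi-likelihood test, and no other of the 14738 tested genes did (0.0% called, with 3172 at an unadjusted p under 0.05). At an unadjusted edgeR p under 0.05 stood 3 of the 10, 1 higher and 2 lower, where 21.5% of all tested genes did so, 12.5% higher and 9.03% lower. The same 3 genes were the ones without overlap between groups, where 27.6% of all tested genes had none, 15.6% with higher and 12.0% with lower values after dexmedetomidine. Those shares leave the count for the 10 genes near that for all genes. DESeq2 called these 3 genes at an adjusted p of 0.05, against 8.63% of all genes, and limma-voom with quality weights called Gnas and Gnaq, against 14.3%. The median log2 fold change of the 10 genes was -0.11, beside 0.0032 over all tested genes.

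**Figure D1:**
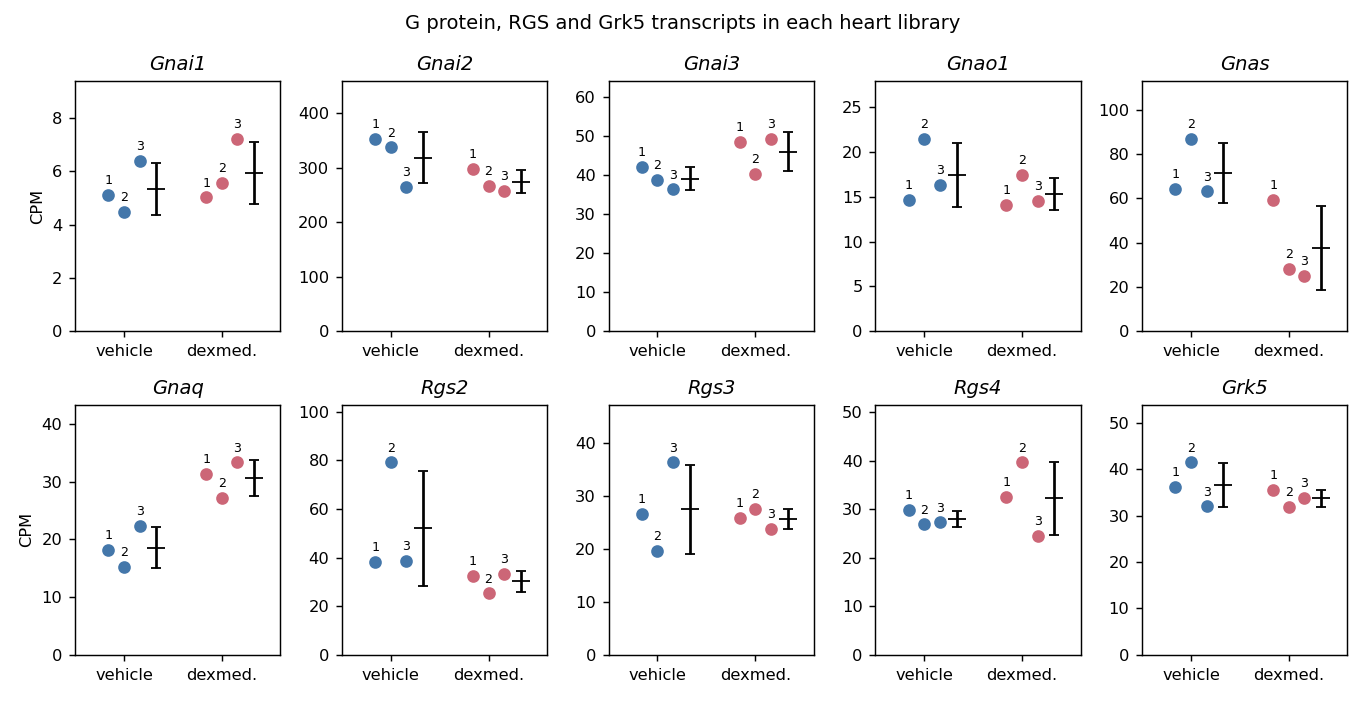
Level of each gene in each library, in CPM on a linear axis from 0, for 3 vehicle libraries (blue) and 3 dexmedetomidine libraries (red); digits are replicate numbers, and black marks give the mean and SD. Gnaq lies above all vehicle values in each dexmedetomidine library, Gnas and Rgs2 lie below, and the other 7 genes overlap.

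Upstream sequences are shown for the genes with the clearest separation and for Rgs4, the relative of Rgs2 whose values overlapped. They are the 250 bases before the transcript start in RefSeq (GRCm38.p6, a different build from the mm9 used for the counts), at chr1:144004150-144004399 on the minus strand for Rgs2, chr1:169747643-169747892 on the minus strand for Rgs4, chr19:16132434-16132683 on the plus strand for Gnaq, and chr2:174329756-174330005 on the plus strand for Gnas, the most downstream of 4 starts listed for that gene. Capitals mark TGACG, the core of a cAMP response element, and GGGCGG, a GC box, on either strand.
Rgs2: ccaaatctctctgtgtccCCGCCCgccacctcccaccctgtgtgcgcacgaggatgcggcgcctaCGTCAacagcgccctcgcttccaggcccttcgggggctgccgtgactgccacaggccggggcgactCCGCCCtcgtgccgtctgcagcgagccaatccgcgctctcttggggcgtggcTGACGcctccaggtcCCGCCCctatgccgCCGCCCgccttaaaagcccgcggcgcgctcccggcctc
Rgs4: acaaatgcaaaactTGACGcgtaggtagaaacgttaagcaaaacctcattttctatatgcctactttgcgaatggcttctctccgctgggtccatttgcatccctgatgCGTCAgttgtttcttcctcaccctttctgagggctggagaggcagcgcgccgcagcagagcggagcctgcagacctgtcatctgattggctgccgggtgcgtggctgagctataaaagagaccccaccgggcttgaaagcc
Gnaq: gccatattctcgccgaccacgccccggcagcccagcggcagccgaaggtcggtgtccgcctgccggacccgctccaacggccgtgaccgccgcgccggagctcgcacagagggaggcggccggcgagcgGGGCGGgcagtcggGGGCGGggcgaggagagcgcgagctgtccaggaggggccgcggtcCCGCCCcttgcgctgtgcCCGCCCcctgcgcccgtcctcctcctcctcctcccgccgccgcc
Gnas: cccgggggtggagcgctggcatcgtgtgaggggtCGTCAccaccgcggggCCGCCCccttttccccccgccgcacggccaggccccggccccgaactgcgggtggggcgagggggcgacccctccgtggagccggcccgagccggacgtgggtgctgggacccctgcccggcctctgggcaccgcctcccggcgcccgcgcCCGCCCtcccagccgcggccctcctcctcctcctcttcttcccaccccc

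Matching entries were present for 9 of the 10 genes, with Gnai2 missing, and they held 13 starts in all. TGACG, found on either strand in 17.8% of 32851 listed upstream sequences of this length, was in 5 of the 13. It stood in 3 of the sequences of Gnas, of which a pair overlaps and shares the match, at -185 and -67 relative to the start of Rgs2, and at -236 and -141 for Rgs4. The GC box, in 32.7% of all, was in 6 of the 13 and occurred 4 times each in the sequences of Rgs2 and Gnaq, and not in that of Rgs4. The full palindrome TGACGTCA, which contains TGACG and is in 1.55% of all sequences, was in none of the 13, and neither was the AP-1 motif TGANTCA, in 6.75% of all. The E-box CACGTG, in 6.02% of all, was in those of Gnai1 and Gnai3. The upstream sequences printed for Rgs2, Gnaq and Gnas have 72.4%, 79.2% and 80.0% GC and that of Rgs4 has 53.6%, where the median over all listed sequences is 52.4%. High GC was not limited to genes without overlap between the groups, since Gnai1 has 79.2% and Gnao1 76.4%, and the other Gnas starts have 61.6% to 63.2%. These matches describe letters, and no binding was measured.

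Gnai2, the main inhibitory alpha subunit gene of the ventricle, was by far the most abundant of the 10 when levels were set per length, as transcripts per 1e6 (TPM) computed from the counts and the deposited gene lengths. It stood at 320.4 ± 28.4 TPM after vehicle and 237 ± 51.5 TPM after dexmedetomidine (SD, n = 3 each), which made up 69.7% and 68.2% of the summed level of the 10 genes. In the vehicle libraries Rgs2 followed at 31.3 ± 12.5 TPM, Gnai3 at 26.4 ± 1.49 and Grk5 at 25.4 ± 1.72, and neighbours among these overlapped. Rgs4 at 20.0 ± 1.63 TPM and Gnas at 14.0 ± 1.98 TPM each stood apart from their neighbours in the order. Gnaq at 6.70 ± 1.79 TPM, Rgs3 at 6.27 ± 2.38, Gnao1 at 5.67 ± 0.991 and Gnai1 at 3.72 ± 0.962 closed the order and overlapped with their neighbours. In the dexmedetomidine libraries Gnai2 was again apart from the rest, at 8.93 times the mean of Gnai3. Gnai3, Grk5, Rgs4 and Rgs2 followed and overlapped with their neighbours among these, and Gnaq and Gnas came next and overlapped with each other. The second place of Rgs2 after vehicle rested on vehicle replicate 2, at 45.6 TPM against 22.6 and 25.6 TPM in replicates 1 and 3. TPM shares a total with the mitochondrial transcripts, so levels per length are read here within a group only. The deposited length of Gnas, 11186 bases, equals the summed exons of every transcript form in GENCODE M21. Its level per length thus depends on which forms were present, and would be higher with the length of a shorter form. The deposited lengths of Gnai2, Gnao1, Grk5 and Rgs3 are shorter than the summed exons in that annotation, at 2185, 6785, 3165 and 9818 bases against 3779, 11053, 7055 and 10801. Levels per length of these 4 genes would be lower with the latter. That of Gnai1 is slightly longer, at 3193 against 3135 bases, and the other 5 are equal. The order, the shares and the gaps between neighbours therefore hold for the deposited lengths only, and other lengths could change them.

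**Figure D2:**
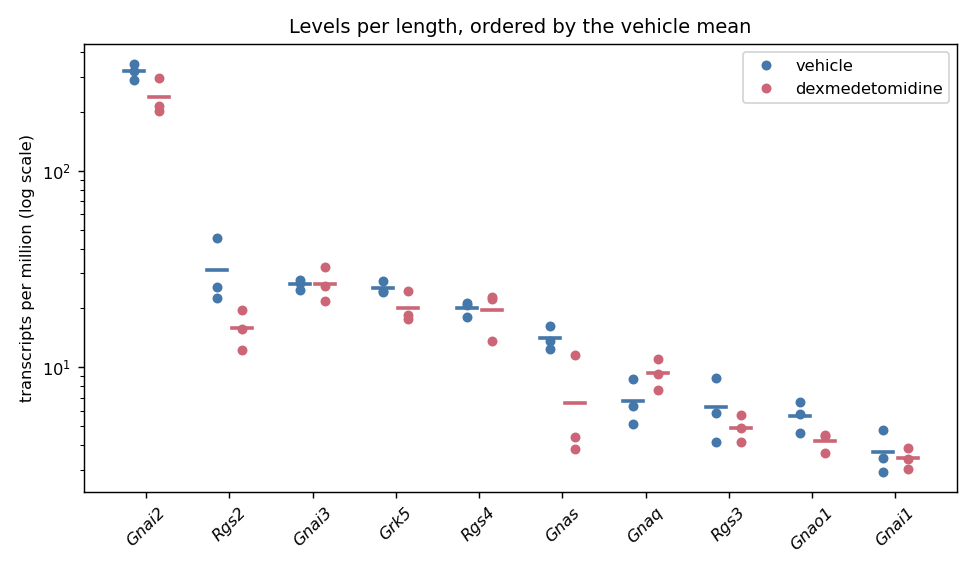
Level per length of each gene in TPM, from the deposited gene lengths, on a log axis, with 1 point per library and bars for the group means, ordered by the vehicle mean. Gnai2 lies about an order of magnitude above the next gene in both groups, and most neighbours further down overlap.

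Within the Gi/o class Gnai2 made up 90.7%, 90.4% and 88.7% of the summed TPM of the 4 genes in the vehicle libraries, in the order of their replicate numbers as in all lists of values here, and 88.1%, 88.0% and 85.8% in the dexmedetomidine libraries. Gnai3 contributed 7.24%, 6.95% and 8.13% after vehicle and 9.58%, 8.88% and 11.0% after dexmedetomidine. The groups thus did not overlap in the share of either gene. Gnai1 contributed 0.819% to 1.65% and Gnao1 1.21% to 1.85% over all libraries, with overlap between the groups. Gnai2 has 56.7% GC and Gnai3 41.7%, and with the GC and length trend removed the mean share of Gnai2 went from 89.9% after vehicle and 87.3% after dexmedetomidine to 87.6% and 89.7%, in the opposite direction, and that of Gnai3 from 7.44% and 9.83% to 9.52% and 7.71%.

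Gnai2 (ENSMUSG00000032562) measured 353, 338 and 265 CPM after vehicle, and 298, 267 and 257 CPM after dexmedetomidine. Vehicle replicate 3 lay below dexmedetomidine replicates 1 and 2, so the groups overlapped. Its log2 fold change was -0.22 (SE 0.14, 95% interval -0.53 to 0.095, edgeR adjusted p = 0.400), and 0.046 when corrected for GC and length. Its interval spans 0.693 to 1.07 times the vehicle level. Leaving out any 1 library gave log2 fold changes of -0.33 to -0.14 and edgeR unadjusted p of 0.0217 to 0.411. The value of -0.33 was without vehicle replicate 3, the lowest of its group.

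Gnai3 (ENSMUSG00000000001), whose protein shares most functions with that of Gnai2, measured 42.1, 38.8 and 36.3 CPM after vehicle and 48.5, 40.3 and 49.3 CPM after dexmedetomidine. Only dexmedetomidine replicate 2 fell within the vehicle range. The log2 fold change was 0.24 (SE 0.13, 95% interval -0.050 to 0.52, edgeR adjusted p = 0.315) and -0.29 with the correction, so its direction depends on that step.

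Gnai1 (ENSMUSG00000057614), at 4.47 to 6.38 CPM after vehicle and 5.02 to 7.22 CPM after dexmedetomidine, had a log2 fold change of 0.16 (SE 0.23, 95% interval -0.35 to 0.66, edgeR adjusted p = 0.733). With the correction it was at -0.29, and the corrected levels of the groups did not overlap, at 5.77 to 6.67 CPM after vehicle and 4.57 to 5.75 after dexmedetomidine. After correction 17.4% of all genes had no overlap.

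Gnao1 (ENSMUSG00000031748) codes for the Go subunit, which is best known from neurons and also present in heart muscle. It measured 14.6, 21.5 and 16.3 CPM after vehicle and 14.1, 17.4 and 14.5 CPM after dexmedetomidine, with vehicle replicate 2 highest and the rest mixed. The log2 fold change was -0.19 (SE 0.18, 95% interval -0.58 to 0.21, edgeR adjusted p = 0.577) and -0.025 with the correction.

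**Figure D3:**
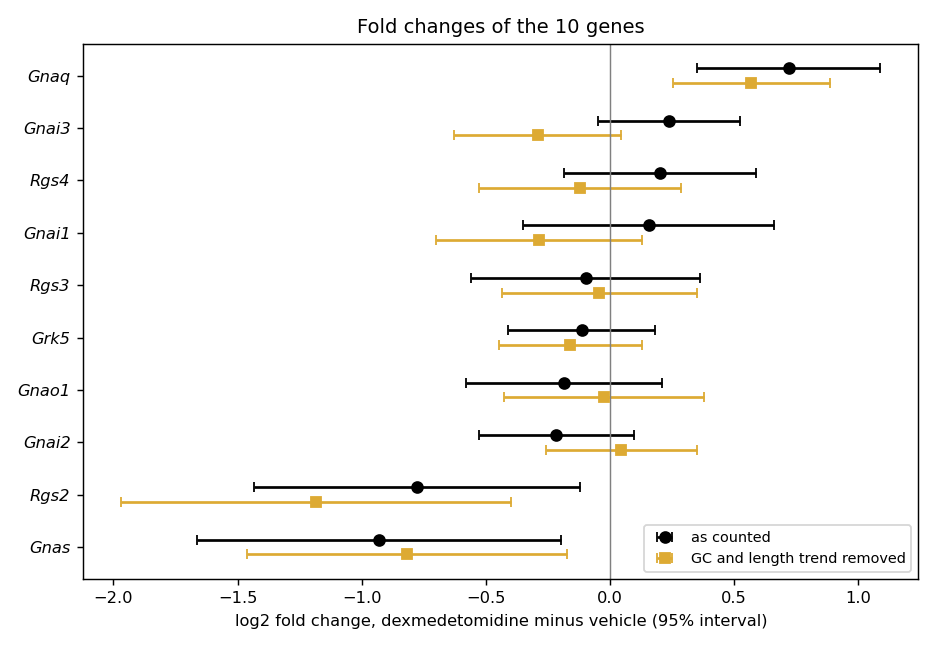
Log2 fold change of each gene, dexmedetomidine minus vehicle, with its 95% interval from edgeR, as counted (black circles) and with the GC and length trend of each library removed (yellow squares). Gnaq, Gnas, Rgs2, Gnao1, Rgs3 and Grk5 keep their side of 0 in both fits, and Gnai1, Gnai2, Gnai3 and Rgs4 change sides.

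Gnas (ENSMUSG00000027523), the stimulatory alpha subunit gene, measured 64.4, 86.9 and 63.1 CPM after vehicle, and 59.4, 28.1 and 24.9 CPM after dexmedetomidine. Dexmedetomidine replicate 1 lay just under the lowest vehicle library and the other two were far below it. The log2 fold change was -0.93 (SE 0.32, 95% interval -1.66 to -0.20, edgeR unadjusted p = 0.0189, adjusted p = 0.152, n = 3), a level 0.525 times that after vehicle, and the DESeq2 adjusted p was 0.0199. Corrected for GC and length, the log2 fold change was -0.82, and the groups overlapped, with vehicle replicate 3 at 56.3 CPM and dexmedetomidine replicate 1 at 57.5 CPM.

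The spread of Gnas was uneven, with an SD of log2 CPM of 0.68 after dexmedetomidine, above that of 90.5% of tested genes, and of 0.26 after vehicle. Without dexmedetomidine replicate 1 the log2 fold change was -1.43 (edgeR adjusted p = 0.0515), without dexmedetomidine replicate 2 it was -0.76 (unadjusted p = 0.0640) and without dexmedetomidine replicate 3 it was -0.71 (unadjusted p = 0.0567). Mitochondrially encoded genes took up 36.9% and 38.2% of counts in dexmedetomidine replicates 2 and 3, the libraries with low Gnas, and 27.1% in replicate 1. If counting did not use strand, which is not given, some reads of Gnas could not be assigned with certainty, since exons of Gm20721 and of Nespas on the opposite strand cover 13.1% and 8.83% of its exon bases in GENCODE M21, and both of these had at most 1 read in each library.

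**Figure D4:**
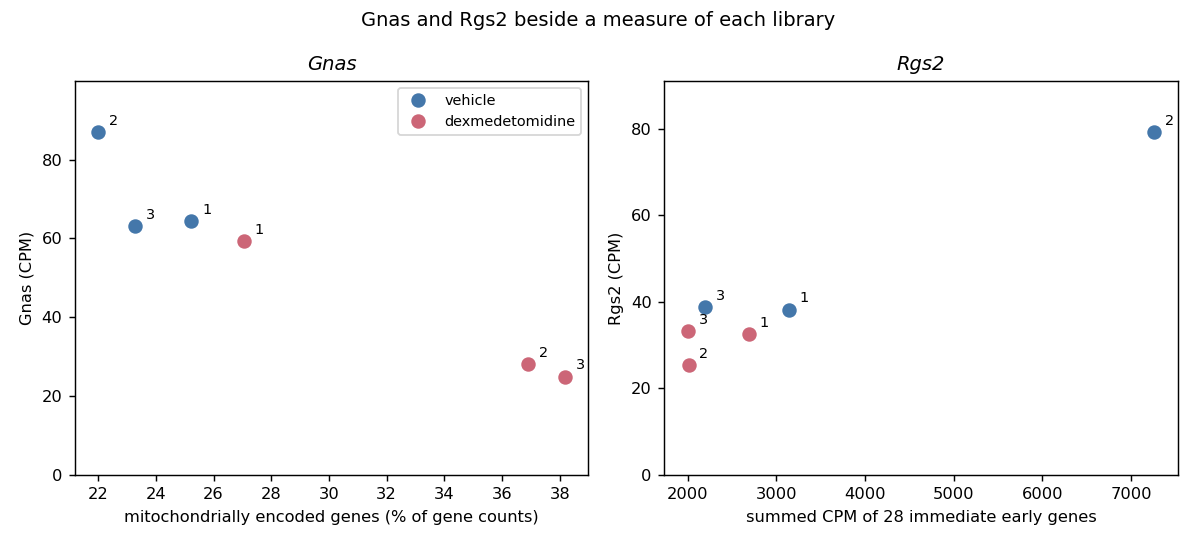
Left, Gnas level in CPM against the share of gene counts in mitochondrially encoded genes; right, Rgs2 level in CPM against the summed CPM of 28 immediate early genes; 1 point per library, digits are replicate numbers. Dexmedetomidine replicates 2 and 3 combine the lowest Gnas with the highest mitochondrial share, and vehicle replicate 2 has both the highest Rgs2 and the highest immediate early sum.

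Gnaq (ENSMUSG00000024639), which codes for the alpha subunit that activates phospholipase C beta, measured 18.2, 15.2 and 22.4 CPM after vehicle and 31.3, 27.2 and 33.3 CPM after dexmedetomidine. Each dexmedetomidine library exceeded each vehicle library. The log2 fold change was 0.72 (SE 0.17, 95% interval 0.35 to 1.09), a 1.65-fold higher level, with an edgeR unadjusted p of 0.00151 and an adjusted p of 0.101 (n = 3). DESeq2 gave an adjusted p of 0.00701 and limma-voom one of 0.0122. Corrected for GC and length, the log2 fold change was 0.57 (SE 0.14, edgeR adjusted p = 0.297) and the groups still did not overlap, at 17.1 to 22.5 CPM against 25.6 to 30.7 CPM. Leaving out any 1 library gave log2 fold changes of 0.59 to 0.87 and edgeR unadjusted p of 0.000374 to 0.00838. The edgeR adjusted p was 0.0171 without vehicle replicate 3, a fit that called 8.31% of all genes. Over all alternative fits the highest edgeR adjusted p of Gnaq was 0.379. With the replicate number as a block, which called 4.32% of all genes, the edgeR adjusted p of Gnaq was 0.0270. The 3 genes whose centred log2 CPM lay closest to that of Gnaq over the 6 libraries were Rasgrp3, a Ras and Rap exchange factor gene, Klhl4, and the integrin gene Itga1, with root mean square differences of 0.044, 0.067 and 0.073.

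Rgs2 (ENSMUSG00000026360) codes for an RGS protein that acts preferentially on Gq and that is known to be induced quickly by receptor stimulation. It measured 38.2, 79.2 and 38.7 CPM after vehicle, and 32.5, 25.3 and 33.2 CPM after dexmedetomidine. All dexmedetomidine values lay below all vehicle values, but vehicle replicates 1 and 3 lay close to them and vehicle replicate 2 stood far above every other library. The log2 fold change was -0.78 (SE 0.29, 95% interval -1.43 to -0.12, edgeR unadjusted p = 0.0255, adjusted p = 0.173), a level 0.584 times that after vehicle, with a DESeq2 adjusted p of 0.0429 and a limma-voom adjusted p of 0.113. With the correction it was -1.18 (SE 0.34, edgeR adjusted p = 0.299), again without overlap.

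Vehicle replicate 2 carried much of the size of that difference. Without it the log2 fold change of Rgs2 was -0.34 (SE 0.15, edgeR unadjusted p = 0.0469, adjusted p = 0.330) in place of -0.78. The same library had 608 CPM of the immediate early gene Fos, against 21.8 to 60.2 CPM in the others. The genes closest to Rgs2 in pattern over the 6 libraries were Spc24, a kinetochore gene at 1.54 to 4.33 CPM, the immediate early phosphatase gene Dusp1 and the syndecan gene Sdc1, at root mean square differences of 0.13, 0.13 and 0.14. For Gnas they were Edf1, a transcriptional coactivator gene, the transcription factor gene Cebpb and Atp5k, an ATP synthase subunit gene, at 0.063, 0.12 and 0.13. Whether the state of these libraries sets the values of Rgs2 or Gnas was not tested.

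The TPM of Rgs2 per TPM of Gnaq came to 3.58, 8.87 and 2.95 after vehicle, and to 1.77, 1.59 and 1.70 after dexmedetomidine. This ratio was formed after the values of both genes were seen and restates them. The dexmedetomidine libraries lay close together and below each vehicle library.

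Rgs4 (ENSMUSG00000038530), an RGS gene acting on Gi/o and Gq subunits, measured 29.9, 26.9 and 27.3 CPM after vehicle and 32.5, 39.6 and 24.4 CPM after dexmedetomidine. The dexmedetomidine libraries bracketed the vehicle range, with replicate 2 the highest and replicate 3 the lowest of all 6. The log2 fold change was 0.20 (SE 0.17, 95% interval -0.18 to 0.59, edgeR adjusted p = 0.537), and -0.12 with the correction. Leaving out any 1 library gave 0.025 to 0.37, with edgeR unadjusted p of 0.0421 to 0.889. The highest was without dexmedetomidine replicate 3, the library with the atrial transcripts, whose part in the values of Rgs4 was not tested. Rgs3 (ENSMUSG00000059810), also a regulator of Gi/o and Gq, spread most after vehicle, at 26.6, 19.5 and 36.2 CPM, and stood at 25.8, 27.5 and 23.7 CPM after dexmedetomidine, within that range. Its log2 fold change was -0.098 (SE 0.21, 95% interval -0.56 to 0.36, edgeR adjusted p = 0.824), -0.043 with the correction and 0.15 without vehicle replicate 3. Among the 3 RGS genes, Rgs2 alone had no overlap between the groups, but differences between their fold changes were not tested.

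Grk5 (ENSMUSG00000003228), the receptor kinase gene, measured 36.1, 41.4 and 32.0 CPM after vehicle and 35.5, 31.8 and 33.8 CPM after dexmedetomidine. The groups overlapped, and the log2 fold change was -0.11 (SE 0.13, 95% interval -0.41 to 0.18, edgeR adjusted p = 0.655) and -0.16 with the correction. Its interval spans 0.752 to 1.13 times the vehicle level.

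The other genes of the pathway were read from lists of partners, regulators and effectors. Of 82 such genes 62 passed the filter on low counts, and 9 of these were higher and 4 lower at an unadjusted edgeR p under 0.05, beside 12.5% and 9.03% of all genes. None passed an adjusted p of 0.05 in edgeR. DESeq2 called 5 higher and 1 lower at an adjusted p of 0.05, where it called 8.63% of all tested genes in either direction. Their median log2 fold change was 0.025, and 0.057 when corrected for GC and length.

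Among the 8 other alpha subunit genes tested, Gnal, the olfactory type relative of Gnas, averaged 1.34 CPM after vehicle and 2.29 CPM after dexmedetomidine, without overlap (log2 fold change 0.77, SE 0.28, edgeR adjusted p = 0.163). Gna12, which belongs to a further class of alpha subunits, stood at 142 and 114 CPM (-0.32, and -0.036 with the correction), while Gnat3 averaged 0.337 and 0.773 CPM, without overlap (1.18, SE 0.61, edgeR adjusted p = 0.295). Gna11, the close relative of Gnaq, had a log2 fold change of -0.14 (SE 0.11, edgeR adjusted p = 0.497), and 0.12 with the correction. Its values did not overlap and lay lower after dexmedetomidine, opposite to those of Gnaq; Gna11 was singled out after its values were seen.

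Beta and gamma subunits form the dimer that alpha subunits release. Of 6 beta genes tested, Gnb2 averaged 133 CPM with vehicle and 103 CPM with dexmedetomidine (log2 fold change -0.38, -0.048 with the correction), and Gnb4 and Gnb3 were at 0.31 and -0.23. Of 7 gamma genes tested, Gng12 measured 37.1 and 48.3 CPM (0.38, -0.072 with the correction), and Gng5 and Gng2 were at 0.19 and 0.29. For Gng12, Gng5, Gng2 and Gnb4 the correction turned the direction.

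The RGS list beyond the 3 genes above held 12 tested genes, 2 of them with an unadjusted edgeR p under 0.05, both higher, where 12.5% of all tested genes were higher and 9.03% lower. Rgs7bp, which codes for a membrane anchor of R7-type RGS proteins, measured 1.69, 1.25 and 2.52 CPM after vehicle and 4.92, 4.90 and 5.83 CPM after dexmedetomidine. Its log2 fold change was 1.51 (SE 0.29, edgeR adjusted p = 0.101, DESeq2 adjusted p = 0.000247), and 1.07 with the correction. Rgs5, a marker of pericytes, measured 699, 570.0 and 718 CPM after vehicle and 905, 1068 and 1163 CPM after dexmedetomidine (0.66, SE 0.14, edgeR adjusted p = 0.101). Neither gene overlapped between the groups, but with the correction Rgs5 was at 0.088. Of the other mural cell markers, Abcc9 measured 289 to 333 CPM after vehicle and 338 to 451 CPM after dexmedetomidine. Lower after dexmedetomidine were Cspg4, at 30.1 to 34.8 and 18.4 to 26.2 CPM, and Notch3, at 67.4 to 73.6 and 50.7 to 65.8 CPM. The 10 mural markers, Rgs5 among them and none at 0, summed to 1374 to 1526 CPM after vehicle and 1720 to 1983 CPM after dexmedetomidine. The other 9 without Rgs5 summed to 763 to 827 and 816 to 838 CPM, with overlap. Log2 fold changes of the 10 mural markers were above 0 for 3 and below 0 for 7, with a median of -0.24. At an unadjusted edgeR p under 0.05, 2 were higher and 2 lower, beside 12.5% and 9.03% of all tested genes. Their mean log2 CPM overlapped, at 6.07 to 6.23 after vehicle and 5.88 to 6.16 after dexmedetomidine. Rgs17 was low, at 0.714 and 1.42 CPM, with a log2 fold change of 0.98 and 0.056 with the correction.

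Receptor kinases and arrestins other than Grk5 had no gene with an unadjusted edgeR p under 0.05 among 6 tested. Grk2, the main beta-adrenergic receptor kinase of the heart, measured 75.3, 81.2 and 74.6 CPM after vehicle and 70.8, 69.1 and 57.6 CPM after dexmedetomidine. These did not overlap, but the log2 fold change of -0.23 (SE 0.12, edgeR adjusted p = 0.314) was at 0.0032 with the correction. Grk4 and Arrb1 were at 0.89 and -0.14.

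Modulators that act on alpha subunits outside the receptor included Ccdc88a, whose product girdin binds Gi subunits. It measured 2.22, 1.21 and 2.94 CPM after vehicle and 10.3, 3.93 and 12.5 CPM after dexmedetomidine (log2 fold change 2.06, SE 0.47, edgeR adjusted p = 0.103, DESeq2 adjusted p = 0.000141), and 1.23 with the correction. Ric8b, a chaperone gene for Gs-type subunits, was at 0.30 (0.11 with the correction). The scaffold gene Akap12 measured 437, 928 and 333 CPM after vehicle and 376, 270 and 263 CPM after dexmedetomidine (-0.90, SE 0.36, edgeR adjusted p = 0.194), and -0.35 without vehicle replicate 2, where it was highest, like Rgs2.

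On the effector side, 4 of 11 tested genes had an unadjusted edgeR p under 0.05, 3 higher and 1 lower, beside 12.5% and 9.03% of all tested genes. Plcb4, a phospholipase C beta gene of the kind Gq activates, measured 57.6, 25.9 and 73.3 CPM after vehicle and 94.3, 109 and 133 CPM after dexmedetomidine (log2 fold change 1.10, SE 0.34, edgeR adjusted p = 0.128, DESeq2 adjusted p = 0.00773), and 0.69 with the correction. Plcb1 was at 0.91 with overlapping groups, and Plcb3 at 0.036. Kcnj3, a subunit of the potassium channel that Gi/o beta-gamma dimers open, measured 21.9, 18.8 and 28.1 CPM after vehicle and 31.7, 36.4 and 40.0 CPM after dexmedetomidine (0.65, SE 0.17, edgeR adjusted p = 0.109), and 0.31 with the correction. The channel is known mainly from atrium and nodes, and dexmedetomidine replicate 3 held atrial transcripts. Without that library Kcnj3 was at 0.57, and the part of atrial transcripts in its values was not tested. Its partner Kcnj5 was at 0.094. Pik3r5, the regulatory subunit of the phosphoinositide kinase that beta-gamma dimers activate, averaged 17.6 CPM after vehicle and 11.9 CPM after dexmedetomidine without overlap (-0.56, SE 0.15, edgeR adjusted p = 0.110), and -0.37 with the correction.

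**Figure D5:**
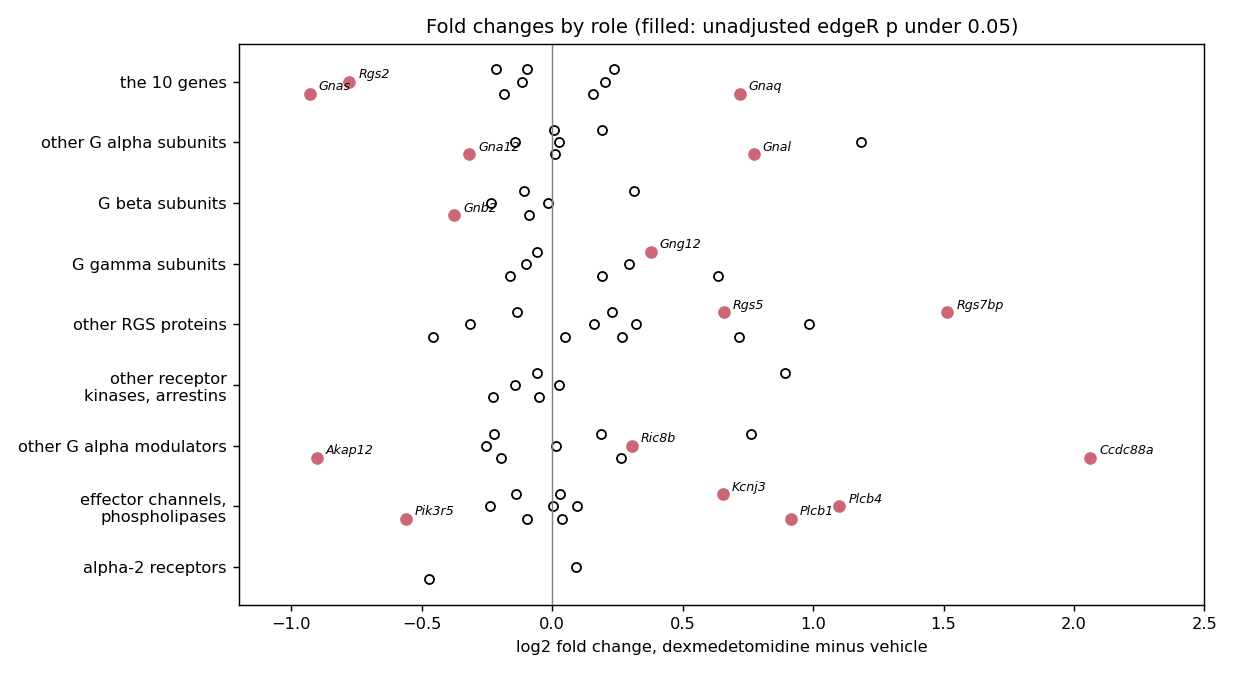
Log2 fold change, dexmedetomidine minus vehicle, of each tested gene by role; filled and named points have an unadjusted edgeR p under 0.05 and none passes an adjusted p of 0.05. The filled points lie on both sides of 0, with 3 among the 10 genes and 13 among the 62 others, where 21.5% of all tested genes passed the same threshold.

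The alpha-2 receptor genes themselves had low counts, with 21 to 144 reads for Adra2b. Adra2a had 0, 1 and 0 reads after vehicle, and 0, 4 and 0 after dexmedetomidine, and was not tested. Adra2b measured 0.604 to 2.49 CPM after vehicle and 0.539 to 1.44 CPM after dexmedetomidine (log2 fold change -0.47, SE 0.55, edgeR adjusted p = 0.660), and Adra2c had at most 15 reads in a library.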

How the data were processed

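Messenger RNA of 6 heart apex libraries, 3 per group, was selected on poly-T beads, per the labels' protocols. The authors deposited raw read counts per gene and a length for each gene. Trim Galore, HTSeq and mm9 are named in the submitters' processing notes, while the aligner, annotation and strand setting were not given in the sources used here. Multi-mapping reads (28.0% to 39.5% of the table), ambiguous reads (1.83% to 2.37%) and reads outside genes (2.33% to 3.63%) were left out of library sizes.

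Symbols came from a gene table (32897 of 37620 identifiers matched). The main test was the quasi-likelihood F test of edgeR 4.0.16 with robust fitting, its filter on low counts (filterByExpr) and TMM scaling, in R 4.3.3, with Benjamini-Hochberg adjustment over 14738 genes. Alternatives were other size factors, other filters, DESeq2 1.42.0, limma-voom (limma 3.58.1), a replicate block, single libraries left out, and removal per library of a spline trend (5 degrees of freedom each) in log2 CPM over GC content of the longest GENCODE M21 transcript and length, for the 97.2% of tested genes with a GC value. The edgeR, DESeq2 and limma-voom fits were tested on simulated counts in which 200 of 14738 genes were changed. Those counts held no GC trend and no outlying library, so they cannot settle which number of calls holds for these data. TPM used the deposited lengths. Libraries differed beyond sampling noise (chi-square per degree of freedom at least 30.3). Separate animals are not stated for the samples, so the p-values describe only how far these samples spread, which may be technical.

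The members and lists were chosen with earlier results of these data known. All 10 genes are named whatever their values, with the 3 smallest p of each pathway list, the alpha-2 receptors, and for the 3 members of smallest p the 3 genes of most similar pattern. Other genes singled out (Gna11, Plcb1, Plcb3, Kcnj5) were chosen after their values were seen.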

Additional observations from a re-analysis of the deposited data

How the results depend on the processing

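The number of genes past an adjusted p of 0.05 depended on the test: edgeR called 0 of 14738 (3172 at an unadjusted p under 0.05), 406 with no filter, 636 with the replicate block, 134 with the GC and length correction and replicate block, DESeq2 1272 and limma-voom with quality weights 2107. Leaving out 1 library gave 0 to 1251, with 1251 without vehicle replicate 3, 7 without dexmedetomidine replicate 1 and 5 without dexmedetomidine replicate 2. Of the 10 genes, 3 had an unadjusted p under 0.05; with no filter it was 1, and under the other settings 2 to 4. With no filter the edgeR adjusted p of Gnaq was 0.0247.

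Deviations of same-numbered libraries from their group means correlated at -0.0547, 0.0361 and 0.153, where all combinations ran from -0.187 to 0.153. Deviations centred within groups of 3 libraries cannot settle whether the numbers mark pairs. The main fit did not take them as pairs, and the fit with the replicate block is given beside it. With the replicate block the edgeR adjusted p of Gnaq was 0.0270. Vehicle replicate 1 correlated best with dexmedetomidine replicate 3, vehicle replicate 2 with replicate 1, and vehicle replicate 3 with its own number.

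Log2 fold changes turned sign as follows, and the cause was not tested. With the GC and length correction, and with that correction and the replicate block, they were -0.29 and -0.29 for Gnai1, 0.046 and 0.057 for Gnai2, -0.29 and -0.28 for Gnai3, -0.12 and -0.15 for Rgs4, -0.051 and -0.039 for Gnb4, -0.072 and -0.056 for Gng12, -0.56 and -0.51 for Gng5, and -0.064 and -0.068 for Gng2. With the correction alone Grk2 was at 0.0032 and Gna11 at 0.12, after -0.14 as counted. With libraries left out, Gnai1 ranged from -0.0079 (without dexmedetomidine replicate 3) to 0.31, Rgs3 from -0.29 to 0.15 and Adra2b from -0.86 to 0.010 (each highest without vehicle replicate 3), and Adra2c from -0.41 to 0.58, with -0.41 without vehicle replicate 1, -0.21 without dexmedetomidine replicate 1 and -0.30 without dexmedetomidine replicate 3.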
